A study of Mus musculus with 12 samples.

Results

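The DNA replication genes described here are 43 genes of the machinery that copies the genome. They comprise 8 genes of origin licensing, 12 of the helicase, 8 of the polymerases and primase, 8 of the sliding clamp, its loader and single-strand binding, 2 of Okazaki fragment maturation, 4 of deoxynucleotide supply, and Uhrf1. They were taken by name, together with every probe whose gene name or accession pointed to them, which gave 63 of the 41174 probes on the array. All 43 had a probe that cleared background on every array of 1 group or more, and so entered the test of 19294 genes. Uteri came from female mice, ovariectomized and rested for 10 to 14 days, at least 10 weeks old and of strain C57bl6/Jx129. Each of the 12 mice received an injection of 100 ul of saline or of E2 (estradiol, dose not given in the labels), and the uterus was taken 2 h later. WT and EAAE mice, 3 for each treatment, made up 4 groups (WT saline, WT E2, and EAAE given saline or E2), and EAAE names mice whose estrogen receptor alpha (gene Esr1) is deficient in DNA binding per the series title. All groups lacked ovaries, no promoter or Cre was named in the labels, and each uterus gave 1 Agilent array labelled with Cy3.

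Replication starts when the origin recognition complex, with Cdc6 and Cdt1, loads the Mcm2-7 ring onto DNA, a step that geminin (Gmnn) blocks outside G1. Cdc45 and the GINS complex turn the ring into the active helicase, primase and the polymerases alpha, delta and epsilon make the strands on the PCNA clamp, and Fen1 and Lig1 join the Okazaki fragments. Many of these genes are transcribed under E2F control as cells leave rest, and in the uterus estradiol is known to drive a round of epithelial DNA synthesis that follows hours after the early transcript response.

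Promoter windows of these genes are shown first, because E2F-type motifs recur in them, in members with and without a genotype difference. The RefSeq promoter table (GRCm38.p6, 250 bases before to 50 after each start) held 35 of the 43 members. The motifs searched on both strands were TTTCGCGC, TTTGGCGC and TTTCCCGC, and overlapping matches were counted as separate. At least 1 of them lay in a window of 15 of these 35 members, against 1.84% of all 32851 windows and 2.12% of the 27025 genes in the table. Of the members with a lower level in EAAE saline than in WT saline, 9 of 21 in the table held a motif, and of the others 6 of 14, which is 42.9% of each. The palindromic estrogen response element, with any spacer of 3 bases, was found in 0 of the 35 members and in 0.07% of all windows. A match describes letters in these windows and not a bound site. The 4 windows below are printed 5′ to 3′ up to the first base of the annotated gene, with the motifs in capitals: Mcm5 (chr8:75109259-75109467, plus strand) and Rfc3 (chr5:151651209-151651458, minus strand) were lower in EAAE under saline, and Mcm6 (chr1:128359706-128359955, minus strand) and Gins3 (chr8:95633309-95633558, plus strand) did not pass the test there.
Mcm5: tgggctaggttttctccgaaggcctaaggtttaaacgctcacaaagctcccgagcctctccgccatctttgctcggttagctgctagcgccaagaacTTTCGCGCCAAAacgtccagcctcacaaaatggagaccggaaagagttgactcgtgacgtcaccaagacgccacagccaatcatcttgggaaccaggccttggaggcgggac
Rfc3: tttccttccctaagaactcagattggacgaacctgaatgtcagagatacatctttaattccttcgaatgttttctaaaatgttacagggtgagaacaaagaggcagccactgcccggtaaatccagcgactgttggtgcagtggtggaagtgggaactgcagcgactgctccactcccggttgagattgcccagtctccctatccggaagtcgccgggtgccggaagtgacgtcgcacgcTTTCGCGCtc
Mcm6: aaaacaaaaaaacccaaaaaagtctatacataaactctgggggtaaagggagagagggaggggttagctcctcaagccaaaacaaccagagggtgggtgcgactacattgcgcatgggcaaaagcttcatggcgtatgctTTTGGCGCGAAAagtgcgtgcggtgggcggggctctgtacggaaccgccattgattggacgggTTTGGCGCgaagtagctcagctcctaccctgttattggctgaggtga
Gins3: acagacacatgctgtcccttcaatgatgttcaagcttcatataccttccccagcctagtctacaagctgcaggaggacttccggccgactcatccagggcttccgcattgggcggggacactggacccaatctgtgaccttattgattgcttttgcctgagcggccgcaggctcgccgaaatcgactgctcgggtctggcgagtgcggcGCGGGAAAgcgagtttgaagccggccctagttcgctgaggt
Positions are counted from the start site of the promoter table, which for Mcm5 lies beyond the end of the printed 209 bases. In Mcm5, 2 of the motifs overlap in a run that starts 153 bases before the start site. Mcm6 holds 3, of which 2 overlap from 110 bases before the start site and 1 starts 47 bases before it. The array read each transcript with probes of 60 bases. The Pcna probe is shown as an example because its 60 bases span 138 bases of the genome (chr2:131990537-131990674, minus strand, build mm7) and so cross a splice junction.
Pcna probe: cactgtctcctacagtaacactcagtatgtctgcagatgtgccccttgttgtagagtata

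Levels are given as log2 intensity relative to the 75th percentile of the same array, a scale on which levels of different probes are not comparable. Differences are on the log2 scale, so that a difference of 1 is a doubling, and were tested with limma over all 12 arrays with adjustment over 19294 genes at a threshold of 0.05. Median intensity was 162.5 to 249.5 per array, and 64.0 to 74.0% of probes were well above background. Arrays of the same group correlated at 0.9825 to 0.9934 over the genes tested, each by its brightest probe, and arrays of different groups at 0.9183 to 0.9883. Esr1 lay at 2.56 to 3.35 on all arrays, and under saline EAAE exceeded WT by 0.41 (adjusted p = 0.00928), a level that does not check the labels of a DNA-binding mutant. Pgr, the progesterone receptor gene and a known estrogen target, was 1.94 higher after E2 in WT. Of 7 ovary markers 4 were not well above background in any group, and the other 3 summed to 0.521 to 1.06 times the 75th percentile. The tissue is whole uterus, with summed smooth muscle markers at 250 to 492 and summed epithelial markers at 112 to 230 times the 75th percentile over the 4 groups, and fewer cells of a type and less RNA per cell cannot be told apart in it.

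Before any hormone, most replication genes were lower in the uterus of EAAE mice than in that of WT mice. Under saline 24 of 43 were lower and 2 higher, against 15.0% lower and 14.6% higher of all genes tested (29.6% in either direction), and 38 of 43 lay below 0. Their median difference was -0.37, beside 0.00 for all genes. The deepest differences were in Mcm10 (-2.70), Tk1 (-2.63), Cdc6 (-1.46), Rrm2 (-1.45), Uhrf1 (-1.31) and Gins2 (-1.19), the 6 members at least 2-fold lower. Of all 19294 genes, 923 passed the threshold and were at least 2-fold lower. In 28 members all 3 EAAE arrays lay below all 3 WT arrays, against 23.4% of all genes, and in 2 all lay above, against 23.5%. With position on the slide as a linear term 14 were lower and 0 higher, against 7.36% lower and 8.02% higher of all genes. Of the 24 lower calls 12 were kept under every alternative that gave a value for the gene, which is 25 or 26 of the 26 tried. One of the 2 higher calls, that of Orc3, came from a probe on the strand opposite the gene, and without such probes 24 were lower and 1 higher. WT saline arrays lay at positions 1, 1 and 2 of their slides and EAAE saline arrays at 2, 3 and 3. Slide 1 is the one that carried both saline groups, with 1 mouse each, and there the members' median was -0.52 beside 0.05 for all genes.

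**Figure D1:**
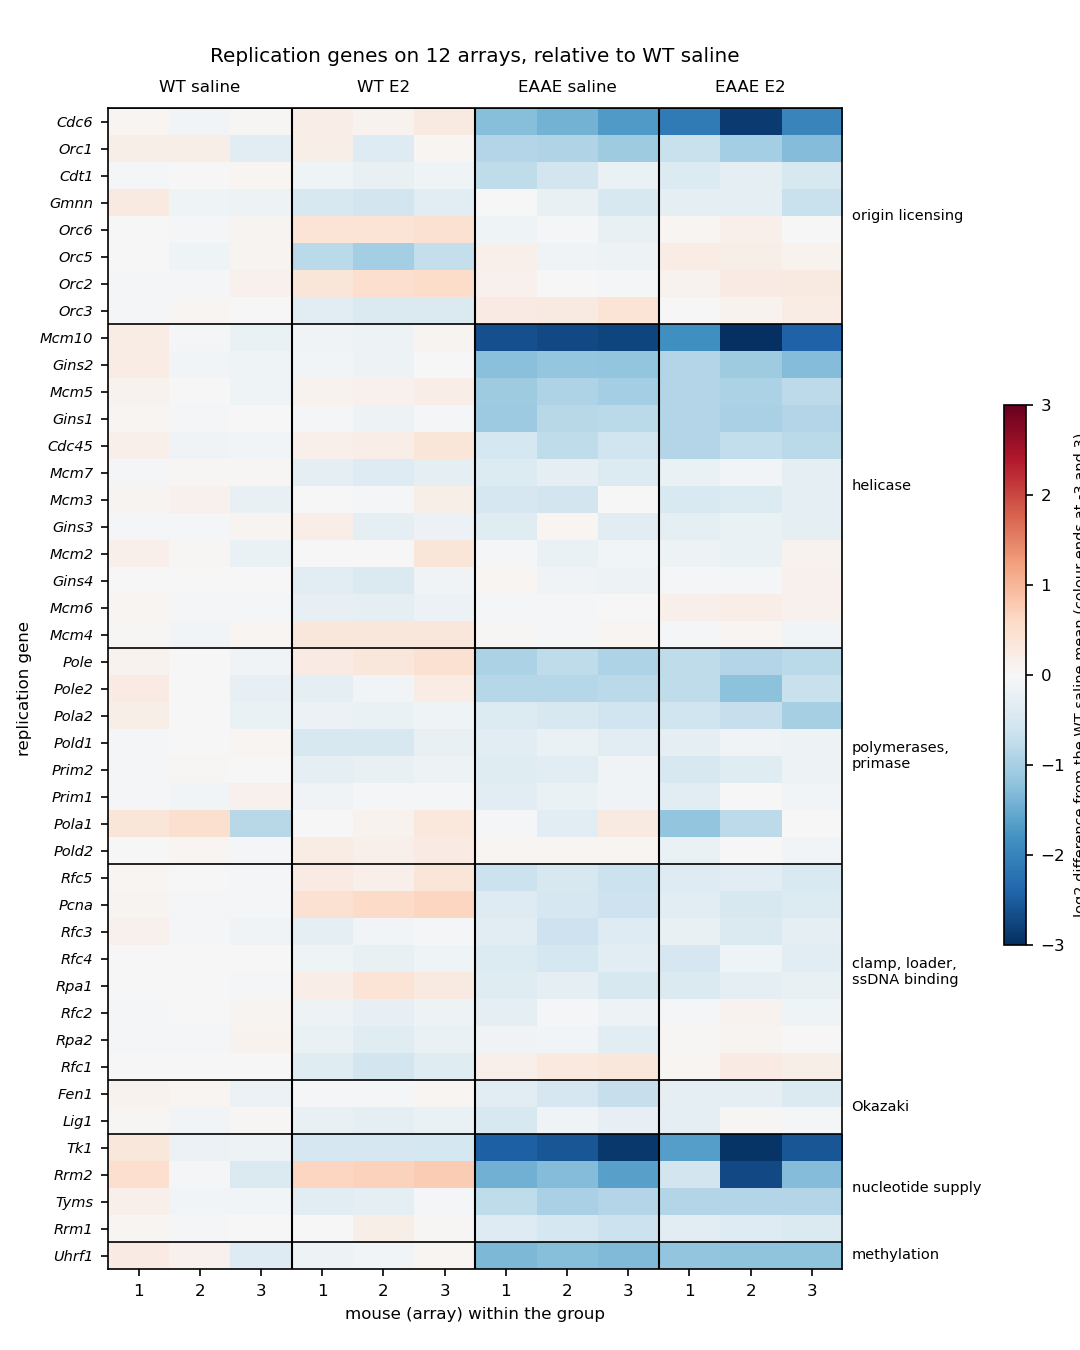
Heat map of the 43 replication genes (rows, by role) on the 12 arrays (columns, mice 1 to 3 of each group), coloured by the log2 difference from the mean of the WT saline arrays. Blue fills the EAAE columns of Mcm10, Tk1, Cdc6, Gins2, Mcm5 and Uhrf1, the Orc3 row is that of its opposite-strand probe, and the WT E2 columns stay pale, within -0.85 to 0.70 as group means.

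After E2 the genotypes differed in much the same way. Of the 43 genes, 24 were lower and 7 higher in EAAE E2 than in WT E2, against 24.5% lower and 33.5% higher of all genes tested (58.0% in either direction), and the median was -0.36 beside 0.11 for all genes. The number of members at least 2-fold lower was 9: Cdc6 (-2.51), Mcm10 (-2.36), Rrm2 (-2.22), Tk1 (-1.89), Pole (-1.16), Uhrf1 (-1.13), Cdc45 (-1.06), Mcm5 (-1.01) and Gins2 (-1.01). Orc5 was the member at least 2-fold higher (1.02). Of all 19294 genes, 1733 passed the threshold at least 2-fold lower and 2518 at least 2-fold higher. In 25 members the EAAE arrays all lay below the WT arrays, against 27.3% of all genes, and in 7 all above, against 37.1%. The genes lower in both conditions numbered 19, which is 79.2% of either list of 24. These 2 comparisons share no array, and over the 43 members their differences correlated at 0.85, with 31 of the same sign. Over all genes the correlation was 0.56, with 12502 of 19294 of the same sign. Within slides 1, 2 and 3, with 1 mouse of each genotype on each, the medians after E2 were -0.43, -0.27 and -0.25. On every slide the EAAE E2 array lay at position 4 and the WT E2 array at position 1, 2 or 3, so that within a slide position and genotype cannot be told apart. With position as a linear term 16 were lower and 4 higher after E2, against 16.1% lower and 21.8% higher of all genes. Without probes on the opposite strand 24 were lower and 6 higher.

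**Figure D2:**
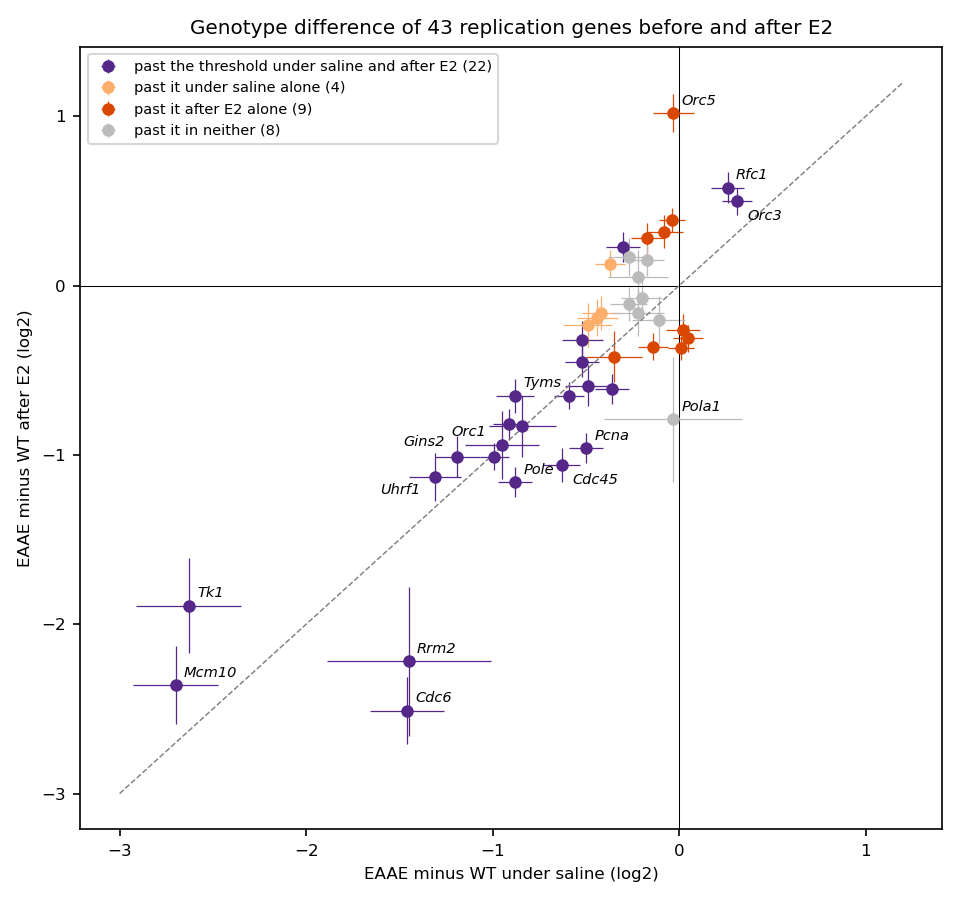
Scatter of the genotype difference (EAAE minus WT, log2) under saline on the x axis and after E2 on the y axis for the 43 replication genes, with bars of 1 SE and the dashed line of equality. Mcm10, Tk1, Cdc6 and Rrm2 lie far below 0 on both axes, and Orc5 stands alone at 1.02 after E2 and -0.03 under saline.

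Among the origin licensing genes, Cdc6, the loader of the Mcm ring, showed the deepest genotype difference, and Orc5 the clearest response to E2. Under saline 3 of the 8 were lower in EAAE (Orc1, Cdc6 and Cdt1) and 1 higher (the opposite-strand probe of Orc3). After E2 4 were lower (Orc1, Orc2, Orc6 and Cdc6) and 2 higher (Orc5 and the opposite-strand probe of Orc3). The shares of all genes tested were 15.0% lower and 14.6% higher under saline, and 24.5% lower and 33.5% higher after E2. Cdc6, whose probe lies at chr11:99032894-99032953, plus strand (build mm7), lay at -3.28, -3.42 and -3.30 in WT saline and -3.14, -3.22 and -3.05 in WT E2. Cdc6 in EAAE lay at -4.60, -4.75 and -5.04 under saline and -5.44, -6.19 and -5.32 after E2. All EAAE arrays lay below all WT arrays, and none of the EAAE E2 arrays was well above background. The difference under saline was 2.75-fold (log2 difference -1.46, SE 0.20, adjusted p = 0.000497), and after E2 Cdc6 was at least 5.0-fold lower in EAAE, where the fitted value was -2.51 (adjusted p = 2.77e-06). With normexp background correction these 2 fitted differences were -0.76 and -1.20, so the 5.0-fold bound holds for the deposited signal alone. A second Cdc6 probe gave -2.38 under saline and -2.56 after E2, both past the threshold. It was well above background on 1 of 3 arrays in each EAAE group, so the sizes of these differences are uncertain.

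Orc1, the subunit of the origin recognition complex that varies most over the cell cycle, lay at -4.92, -4.93 and -5.45 in WT saline and -4.93, -5.49 and -5.05 in WT E2. Orc1 in EAAE lay at -5.98, -6.0 and -6.16 under saline and -5.77, -6.12 and -6.41 after E2. No EAAE array was well above background, so that Orc1 was at least 1.5-fold lower in EAAE under saline (adjusted p = 0.00615) and at least 1.2-fold lower after E2 (adjusted p = 0.00247), where 2 of the 3 WT E2 arrays were well above background. With normexp background correction the Orc1 differences were -0.21 and -0.35, so the 1.5-fold bound under saline holds for the deposited signal alone. Orc5, another subunit of that complex, lay at -1.82, -1.95 and -1.74 in WT saline and -2.65, -2.85 and -2.55 in WT E2. Orc5 in EAAE lay at -1.68, -1.94 and -1.98 under saline and -1.60, -1.66 and -1.73 after E2. The Orc5 probe lies at chr5:21525296-21525355, minus strand (build mm7). The 3 WT E2 arrays stood below the other 9, which overlapped. Orc5 fell in WT (log2 difference -0.85, SE 0.11, adjusted p = 0.000121), had a difference of 0.20 in EAAE (adjusted p = 0.398), and the 2 responses differed by 1.05 (adjusted p = 0.000569).

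The remaining subunits moved less. Orc2 lay at 0.74, 0.75 and 0.95 in WT saline and 1.17, 1.32 and 1.35 in WT E2. Orc2 in EAAE lay at 0.94, 0.81 and 0.74 under saline and 0.92, 1.05 and 1.08 after E2. It rose in WT with E2 (log2 difference 0.47, SE 0.09, adjusted p = 0.00198). Orc6 lay at 2.44, 2.39 and 2.54 in WT saline and 2.86, 2.87 and 2.92 in WT E2. Orc6 in EAAE lay at 2.34, 2.40 and 2.23 under saline and 2.53, 2.61 and 2.44 after E2. It rose in WT likewise (log2 difference 0.42, SE 0.08, adjusted p = 0.00129). In both, all WT E2 arrays were above all WT saline arrays, and after E2 the EAAE arrays lay below the WT arrays by -0.26 in Orc2 (adjusted p = 0.0326) and by -0.36 in Orc6 (adjusted p = 0.00275). The brightest probe that the files name for Orc3, matched through an older name, lies on the plus strand, opposite to the gene, so that its values are not those of Orc3 mRNA. This Orc3 probe lay at 0.86, 0.94 and 0.88 in WT saline and 0.56, 0.45 and 0.46 in WT E2. Orc3 in EAAE lay at 1.14, 1.16 and 1.31 under saline and 0.87, 1.0 and 1.12 after E2. It fell in WT (log2 difference -0.40, SE 0.08, adjusted p = 0.0027) and was higher in EAAE under saline (0.31, adjusted p = 0.0189) and after E2 (0.50, adjusted p = 0.000464). A second plus-strand probe gave -0.08 under saline. The 3 probes on the minus strand, that of the gene, disagreed among themselves. The brightest of them passed no test, with -0.10 under saline, 0.15 after E2 and -0.14 in the WT response. Another was lower in EAAE under saline (-0.28, adjusted p = 0.0281 over all tested probes) and after E2 (-0.30, adjusted p = 0.00987), and the dimmest gave 0.17 under saline and was higher after E2 (0.49, adjusted p = 0.000463). No direction is given for Orc3 itself.

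Cdt1, which brings the Mcm ring to the origin, lay at 2.31, 2.33 and 2.40 in WT saline and 2.23, 2.12 and 2.22 in WT E2. Cdt1 in EAAE lay at 1.59, 1.81 and 2.16 under saline and 1.93, 2.09 and 1.87 after E2. The EAAE saline arrays lay below the WT saline arrays (log2 difference -0.49, SE 0.13, adjusted p = 0.0158). Geminin (Gmnn), the inhibitor of Cdt1, lay at 1.88, 1.49 and 1.45 in WT saline and 1.14, 1.06 and 1.26 in WT E2. Gmnn in EAAE lay at 1.63, 1.39 and 1.14 under saline and 1.35, 1.31 and 0.94 after E2. It fell in WT with E2 (log2 difference -0.45, SE 0.16, adjusted p = 0.04). The calls under saline that did not hold in every alternative were those of Orc1 (adjusted p = 0.138 with normexp background and 0.108 with position as a linear term), Cdt1 (adjusted p = 0.0574 with position as a linear term, 0.0533 with only the groups compared and 0.0518 without WT saline 3) and Orc3 (8 of 26 alternatives, adjusted p up to 0.982, and 0.0531 to 0.069 without WT saline 1 or 3 or EAAE saline 3). Those after E2 were Orc1 (adjusted p = 0.328 with position as a linear term), Orc2 (9 of 26 alternatives, adjusted p up to 0.104, and 0.0538 to 0.104 without WT E2 2 or 3 or EAAE E2 1 or 2) and Orc3 (adjusted p = 0.0513 with mean of probes, 0.125 without probes matched through an older name and 0.125 without probes on the strand opposite their gene), and those of the WT response Orc3 (adjusted p = 0.0557 with array median scaling, 0.173 without probes matched through an older name and 0.173 without probes on the strand opposite their gene) and Gmnn (9 of 26 alternatives, adjusted p up to 0.147, and 0.0528 to 0.147 without WT saline 1 or 2, WT E2 1, 2 or 3 or EAAE saline 2).

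In the helicase, by the brightest probe of each gene, the genotype differences were largest in Mcm10, Gins2, Mcm5, Gins1 and Cdc45. They were smaller in the rest of the Mcm2-7 ring, though a second Mcm3 probe gave -0.63 under saline. Under saline 6 of the 12 genes were lower in EAAE and 0 higher, with Mcm7 as the sixth. After E2 7 were lower (Mcm3, Mcm4, Mcm5, Mcm10, Cdc45, Gins1 and Gins2) and 2 higher (Mcm6 and Gins4). Among all genes tested 15.0% were lower and 14.6% higher under saline, and 24.5% lower and 33.5% higher after E2. Mcm10, a scaffold that helps start the helicase, lay at -0.54, -0.81 and -0.96 in WT saline and -0.88, -0.92 and -0.68 in WT E2. Mcm10 in EAAE lay at -3.40, -3.48 and -3.52 under saline and -2.62, -3.75 and -3.19 after E2. The Mcm10 probe lies at chr2:4908072-4908131, minus strand (build mm7). All 6 EAAE arrays lay below all 6 WT arrays, with a range of more than 1 among the EAAE E2 arrays. The difference was 6.49-fold under saline (log2 difference -2.70, SE 0.23, adjusted p = 2.73e-05) and 5.13-fold after E2 (log2 difference -2.36, SE 0.23, adjusted p = 1.14e-05).

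Mcm5, a subunit of the ring, lay at 1.34, 1.23 and 1.11 in WT saline and 1.34, 1.35 and 1.42 in WT E2. Mcm5 in EAAE lay at 0.17, 0.31 and 0.21 under saline and 0.35, 0.29 and 0.44 after E2. The Mcm5 probe lies at chr8:73669372-73669432, plus strand (build mm7). The genotypes did not overlap in either condition, with differences of -0.99 under saline (SE 0.08, adjusted p = 2.12e-05) and -1.01 after E2 (adjusted p = 3.05e-06), while E2 itself gave 0.14 in WT and 0.13 in EAAE, neither past the threshold. Its partners in the ring went other ways. Mcm4 lay at 2.86, 2.74 and 2.87 in WT saline and 3.15, 3.16 and 3.17 in WT E2. Mcm4 in EAAE lay at 2.85, 2.77 and 2.89 under saline and 2.76, 2.88 and 2.74 after E2. It rose in WT with E2 (log2 difference 0.34, SE 0.07, adjusted p = 0.00322), with no genotype difference past the threshold under saline (0.01, adjusted p = 0.921). Mcm6 lay at 4.15, 4.05 and 4.03 in WT saline and 3.84, 3.80 and 3.91 in WT E2. Mcm6 in EAAE lay at 4.05, 4.01 and 4.06 under saline and 4.23, 4.29 and 4.20 after E2. It fell in WT with E2 (log2 difference -0.23, SE 0.07, adjusted p = 0.0181). Mcm7 lay at 3.15, 3.24 and 3.25 in WT saline and 2.92, 2.82 and 2.95 in WT E2. Mcm7 in EAAE lay at 2.81, 2.92 and 2.81 under saline and 3.01, 3.12 and 2.94 after E2. It fell in WT with E2 (log2 difference -0.32, SE 0.08, adjusted p = 0.00663) and was lower in EAAE under saline (-0.37, adjusted p = 0.00615). In both Mcm6 and Mcm7 the EAAE E2 arrays lay above the EAAE saline arrays, by 0.20 and 0.18, without passing the threshold. Mcm3 lay at 1.82, 1.85 and 1.51 in WT saline and 1.74, 1.67 and 1.91 in WT E2. Mcm3 in EAAE lay at 1.22, 1.17 and 1.72 under saline and 1.28, 1.31 and 1.47 after E2. It was lower in EAAE after E2 (log2 difference -0.42, SE 0.15, adjusted p = 0.0371). Its second probe was lower under both conditions, by -0.63 under saline and -0.68 after E2. Mcm2 passed no test, with a genotype difference of -0.11 under saline.

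Cdc45 and the GINS genes, which activate the ring, lay mostly lower in EAAE. Cdc45 lay at -3.10, -3.36 and -3.34 in WT saline and -3.10, -3.05 and -2.89 in WT E2. Cdc45 in EAAE lay at -3.79, -4.03 and -3.85 under saline and -4.14, -4.0 and -4.08 after E2. EAAE lay below WT under saline (log2 difference -0.63, SE 0.10, adjusted p = 0.00139) and further below after E2 (log2 difference -1.06, SE 0.10, adjusted p = 9.83e-06). With normexp background correction the Cdc45 differences were -0.37 and -0.60. Gins2, read by 1 probe that was matched through an older name, lay at -0.32, -0.62 and -0.68 in WT saline and -0.63, -0.69 and -0.52 in WT E2. Gins2 in EAAE lay at -1.79, -1.69 and -1.72 under saline and -1.43, -1.60 and -1.84 after E2. The genotype difference of Gins2 was -1.19 under saline (adjusted p = 7.91e-05) and -1.01 after E2 (adjusted p = 4.87e-05). Gins1 lay at -0.46, -0.58 and -0.55 in WT saline and -0.60, -0.68 and -0.57 in WT E2. Gins1 in EAAE lay at -1.61, -1.36 and -1.33 under saline and -1.42, -1.50 and -1.40 after E2. The genotype difference of Gins1 was -0.91 under saline (adjusted p = 5.78e-05) and -0.82 after E2 (adjusted p = 2.08e-05). In both of these GINS subunits the genotypes did not overlap. Gins4 went the other way and lay at 1.25, 1.23 and 1.22 in WT saline and 0.88, 0.79 and 1.12 in WT E2. Gins4 in EAAE lay at 1.28, 1.12 and 1.07 under saline and 1.19, 1.18 and 1.36 after E2. It fell in WT with E2 (log2 difference -0.30, SE 0.10, adjusted p = 0.0292) and was higher in EAAE after E2 (0.32, adjusted p = 0.0203). Gins3 passed no test (-0.22 under saline, adjusted p = 0.286). The genotype calls that did not hold in every alternative were those of Mcm7 (adjusted p = 0.063 with position as a linear term) under saline and of Mcm3 (9 of 26 alternatives, adjusted p up to 0.346, and 0.0512 to 0.119 without WT E2 1, 2 or 3 or EAAE E2 1 or 2) and Gins4 (6 of 26 alternatives, adjusted p up to 0.111, and 0.0634 to 0.085 without WT E2 1 or 2 or EAAE E2 3) after E2. In the WT response they were Mcm6 (5 of 26 alternatives, adjusted p up to 0.392, and 0.0546 to 0.0682 without WT saline 1 or WT E2 1 or 2), Mcm7 (adjusted p = 0.12 with array median scaling) and Gins4 (9 of 26 alternatives, adjusted p up to 0.275, and 0.0611 to 0.116 without WT saline 1, 2 or 3 or WT E2 1 or 2).

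**Figure D3:**
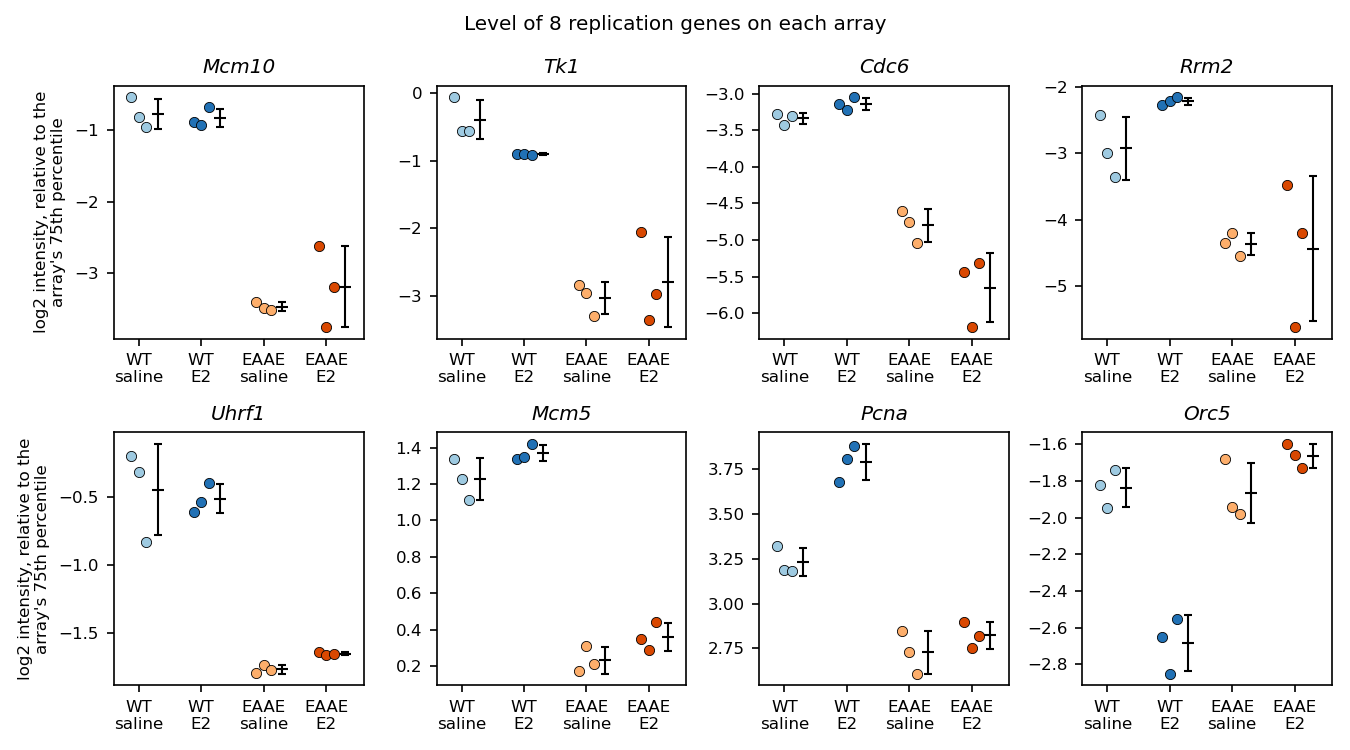
Level (log2 intensity relative to the 75th percentile of the array, y axis) of 8 replication genes on each array, by group, with the group mean and SD beside the points (n = 3 mice). In Mcm10, Tk1, Cdc6, Uhrf1, Mcm5 and Pcna every EAAE point lies below every WT point, and in Orc5 the WT E2 points lie below the other 9.

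Of the polymerase and primase genes, those of polymerase epsilon differed most between genotypes and the primase genes did not pass the test. Under saline 4 of 8 were lower in EAAE (Pole, Pole2, Pola2 and Pold1) and 0 higher, against 15.0% and 14.6% of all genes tested. After E2 4 were lower (Pole, Pole2, Pola2 and Pold2) and 1 higher (Pold1), against 24.5% and 33.5% of all genes. Pole, the catalytic subunit of the leading-strand polymerase, lay at 0.26, 0.15 and 0.06 in WT saline and 0.41, 0.51 and 0.61 in WT E2. Pole in EAAE lay at -0.80, -0.60 and -0.77 under saline and -0.61, -0.71 and -0.64 after E2. EAAE lay below WT throughout (log2 difference -0.88, SE 0.09, adjusted p = 6.77e-05 under saline, and -1.16 after E2, adjusted p = 1.95e-06), and WT rose with E2 (log2 difference 0.35, SE 0.09, adjusted p = 0.00761). Pole2, its second subunit, lay at -2.16, -2.39 and -2.65 in WT saline and -2.69, -2.49 and -2.18 in WT E2. Pole2 in EAAE lay at -3.25, -3.26 and -3.20 under saline and -3.16, -3.64 and -3.06 after E2. The 2 genotype differences were -0.84 (adjusted p = 0.0063) and -0.83 (adjusted p = 0.00252). With normexp background correction the Pole2 difference after E2 was -0.52. Pola2, the accessory subunit of polymerase alpha, lay at -1.47, -1.65 and -1.84 in WT saline and -1.83, -1.86 and -1.78 in WT E2. Pola2 in EAAE lay at -2.07, -2.12 and -2.25 under saline and -2.24, -2.34 and -2.64 after E2. EAAE differed from WT by -0.49 under saline (adjusted p = 0.0125) and -0.59 after E2 (adjusted p = 0.00197). A second, dimmer Pola2 probe gave -0.12 and 1.26 in these comparisons, so the Pola2 probes disagreed in sign after E2. That probe was well above background on 0 of 3 WT E2 arrays, so the size of the 1.26 is uncertain.

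Pold1, the catalytic subunit of the lagging-strand polymerase delta, lay at 2.29, 2.35 and 2.42 in WT saline and 1.86, 1.88 and 2.12 in WT E2. Pold1 in EAAE lay at 2.0, 2.15 and 2.01 under saline and 2.09, 2.25 and 2.20 after E2. It is the 1 member with opposite calls, lower in EAAE under saline (log2 difference -0.30, SE 0.09, adjusted p = 0.0316) and higher after E2 (log2 difference 0.23, SE 0.09, adjusted p = 0.0497), where the groups overlapped, and it fell in WT with E2 (log2 difference -0.40, SE 0.09, adjusted p = 0.00432). Its partner Pold2 lay at -0.57, -0.52 and -0.66 in WT saline and -0.37, -0.44 and -0.34 in WT E2. Pold2 in EAAE lay at -0.54, -0.53 and -0.54 under saline and -0.79, -0.60 and -0.68 after E2. It rose in WT with E2 by a small amount (log2 difference 0.20, SE 0.08, adjusted p = 0.0453), with EAAE lower after E2 (-0.31, adjusted p = 0.00502). Pola1, the catalytic subunit of polymerase alpha, lay at 0.56, 0.66 and -0.65 in WT saline and 0.18, 0.30 and 0.50 in WT E2. Pola1 in EAAE lay at 0.15, -0.12 and 0.46 under saline and -1.0, -0.59 and 0.21 after E2. It passed no test, and its WT saline arrays spanned more than 1 unit. Prim1 lay at 1.96, 1.91 and 2.14 in WT saline and 1.89, 1.94 and 1.95 in WT E2. Prim1 in EAAE lay at 1.69, 1.80 and 1.90 under saline and 1.66, 2.0 and 1.91 after E2. Prim2 lay at 0.42, 0.48 and 0.44 in WT saline and 0.15, 0.23 and 0.30 in WT E2. Prim2 in EAAE lay at 0.08, 0.10 and 0.35 under saline and -0.04, 0.08 and 0.29 after E2. Both primase genes passed no test, with -0.20 and -0.27 under saline. The genotype calls under saline that did not hold in every alternative were those of Pola2 (adjusted p = 0.222 with mean of probes, 0.148 with position as a linear term and 0.0512 without WT saline 1), Pold1 (11 of 26 alternatives, adjusted p up to 0.164, and 0.0515 to 0.1 without WT saline 1, 2 or 3 or EAAE saline 1 or 3) and Pole2 (adjusted p = 0.0585 with position as a linear term). Those after E2 were Pola2 (adjusted p = 0.132 with mean of probes and 0.144 with position as a linear term), Pold1 (18 of 26 alternatives, adjusted p up to 0.485, and 0.051 to 0.159 without WT saline 1, 2 or 3, WT E2 1 or 2, EAAE saline 1, 2 or 3 or EAAE E2 2 or 3), Pold2 (adjusted p = 0.208 with position as a linear term) and Pole2 (adjusted p = 0.0722 with position as a linear term), and those of the WT response Pold1 (adjusted p = 0.0862 with array median scaling) and Pold2 (15 of 26 alternatives, adjusted p up to 0.182, and 0.0542 to 0.144 without WT saline 1, 2 or 3, WT E2 1, 2 or 3 or EAAE saline 1, 2 or 3).

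In the clamp, its loader and the single-strand binding protein, Pcna rose with E2 in WT and was lower in EAAE in both conditions. Under saline 5 of 8 were lower in EAAE (Pcna, Rfc3, Rfc4, Rfc5 and Rpa1) and Rfc1 was higher. After E2 3 were lower (Pcna, Rfc5 and Rpa1) and 2 higher (Rfc1 and Rpa2), or 37.5% and 25.0%, against 24.5% and 33.5% of all genes tested. For the saline counts the shares of all genes were 15.0% lower and 14.6% higher. Pcna, the sliding clamp whose probe is printed above, lay at 3.32, 3.19 and 3.18 in WT saline and 3.68, 3.81 and 3.88 in WT E2. Pcna in EAAE lay at 2.85, 2.73 and 2.61 under saline and 2.90, 2.75 and 2.82 after E2. The WT E2 arrays were the highest, the WT saline arrays came next, and the EAAE arrays lay below both without separating by treatment. Pcna rose in WT (log2 difference 0.56, SE 0.09, adjusted p = 0.000546) and had a difference of 0.09 in EAAE (adjusted p = 0.653). EAAE lay below WT by -0.50 under saline (adjusted p = 0.0025) and -0.96 after E2 (adjusted p = 8.07e-06).

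The loader subunits split. Rfc5 lay at 1.35, 1.28 and 1.26 in WT saline and 1.54, 1.46 and 1.67 in WT E2. Rfc5 in EAAE lay at 0.66, 0.83 and 0.65 under saline and 0.92, 0.95 and 0.85 after E2. It was lower in EAAE under saline (log2 difference -0.59, SE 0.08, adjusted p = 0.000557) and after E2 (-0.65, adjusted p = 6.89e-05) and higher with E2 in WT (0.26, adjusted p = 0.0243). Rfc1, the large subunit, lay at 1.84, 1.85 and 1.86 in WT saline and 1.49, 1.31 and 1.49 in WT E2. Rfc1 in EAAE lay at 2.0, 2.15 and 2.20 under saline and 1.90, 2.10 and 2.02 after E2. It went opposite to Rfc5, falling in WT with E2 (log2 difference -0.42, SE 0.09, adjusted p = 0.00237) and higher in EAAE under saline (0.26, adjusted p = 0.0433) and after E2 (0.58, adjusted p = 0.000222). Rfc3 lay at -1.19, -1.37 and -1.43 in WT saline and -1.60, -1.41 and -1.39 in WT E2. Rfc3 in EAAE lay at -1.64, -1.94 and -1.71 under saline and -1.56, -1.77 and -1.63 after E2. Rfc4 lay at 1.39, 1.39 and 1.37 in WT saline and 1.24, 1.15 and 1.25 in WT E2. Rfc4 in EAAE lay at 0.96, 0.86 and 1.07 under saline and 0.88, 1.25 and 1.04 after E2. Both were lower in EAAE under saline, by -0.44 (adjusted p = 0.0134) and -0.42 (adjusted p = 0.009), and neither passed the test after E2. Rfc2 passed no test (-0.17 under saline), though its second probe passed under saline at -0.29.

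Rpa1, the large subunit of the single-strand binding protein, lay at 1.91, 1.90 and 1.86 in WT saline and 2.09, 2.29 and 2.15 in WT E2. Rpa1 in EAAE lay at 1.53, 1.63 and 1.42 under saline and 1.45, 1.59 and 1.66 after E2. It rose in WT with E2 (log2 difference 0.29, SE 0.09, adjusted p = 0.0217) and was lower in EAAE under saline (-0.36, adjusted p = 0.0125) and after E2 (-0.61, adjusted p = 0.000189). Rpa2, its partner, lay at 0.66, 0.64 and 0.81 in WT saline and 0.51, 0.34 and 0.50 in WT E2. Rpa2 in EAAE lay at 0.59, 0.61 and 0.39 under saline and 0.73, 0.78 and 0.69 after E2. It went the other way, fell in WT with E2 (log2 difference -0.26, SE 0.09, adjusted p = 0.0342) and was higher in EAAE after E2 (0.28, adjusted p = 0.0183). The saline calls of this group that did not hold in every alternative were those of Rfc1 (13 of 26 alternatives, adjusted p up to 0.249, and 0.0579 to 0.134 without WT saline 1, 2 or 3, WT E2 1 or 3 or EAAE saline 2 or 3), Rfc3 (adjusted p = 0.075 with slide as a block, 0.0977 with position as a linear term and 0.0551 without WT saline 1), Rfc4 (adjusted p = 0.0911 with position as a linear term) and Rpa1 (adjusted p = 0.0558 with array median scaling and 0.126 with slide as a block), and the call after E2 was that of Rpa2 (4 of 26 alternatives, adjusted p up to 0.103, and 0.0581 to 0.0754 without WT E2 2 or EAAE E2 2). In the WT response they were Rfc5 (5 of 26 alternatives, adjusted p up to 0.096, and 0.0544 to 0.096 without WT saline 2 or 3 or WT E2 1 or 3), Rpa1 (5 of 26 alternatives, adjusted p up to 0.104, and 0.0505 to 0.0888 without WT saline 2 or 3 or WT E2 2) and Rpa2 (10 of 26 alternatives, adjusted p up to 0.342, and 0.0506 to 0.128 without WT saline 1 or 3 or WT E2 1, 2 or 3).

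The genes of deoxynucleotide supply were all lower in EAAE, 4 of 4 in both conditions, against 15.0% of all genes under saline and 24.5% after E2. Tk1, the cytosolic thymidine kinase of the salvage route, lay at -0.07, -0.57 and -0.56 in WT saline and -0.90, -0.90 and -0.92 in WT E2. Tk1 in EAAE lay at -2.84, -2.96 and -3.29 under saline and -2.06, -3.35 and -2.97 after E2. The Tk1 probe lies at chr11:117924836-117924895, minus strand (build mm7). All EAAE arrays lay below all WT arrays, with differences of 6.19-fold under saline (log2 difference -2.63, SE 0.28, adjusted p = 9.65e-05) and 3.69-fold after E2 (log2 difference -1.89, SE 0.28, adjusted p = 0.000202). Rrm2, the regulated subunit of ribonucleotide reductase, lay at -2.42, -2.99 and -3.36 in WT saline and -2.27, -2.22 and -2.16 in WT E2. Rrm2 in EAAE lay at -4.35, -4.21 and -4.55 under saline and -3.48, -5.62 and -4.21 after E2. In this last group 2 of the 3 EAAE E2 arrays were well above background. The EAAE E2 arrays spread over more than 2 units, and the differences were -1.45 under saline (SE 0.44, adjusted p = 0.0311) and -2.22 after E2 (adjusted p = 0.00139). With normexp background correction they were -0.95 and -1.30. The WT E2 arrays of Rrm2 lay above the WT saline arrays by 0.70, which did not pass the threshold (adjusted p = 0.209).

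Rrm1, the large subunit of the same reductase, lay at 1.75, 1.64 and 1.72 in WT saline and 1.68, 1.87 and 1.74 in WT E2. Rrm1 in EAAE lay at 1.32, 1.18 and 1.05 under saline and 1.37, 1.31 and 1.26 after E2. Its genotype differences were -0.52 (adjusted p = 0.0018) and -0.45 (adjusted p = 0.00133). Tyms, the thymidylate synthase, lay at 1.58, 1.34 and 1.34 in WT saline and 1.10, 1.12 and 1.37 in WT E2. Tyms in EAAE lay at 0.65, 0.45 and 0.53 under saline and 0.54, 0.54 and 0.55 after E2. EAAE lay below WT by -0.88 under saline (adjusted p = 0.000158) and -0.65 after E2 (adjusted p = 0.000268). A second bright Tyms probe gave -0.92 and -0.67, and a dim one 0.79 and 0.51 without passing the threshold. Uhrf1, which brings maintenance methylation to newly copied DNA, lay at -0.20, -0.32 and -0.83 in WT saline and -0.61, -0.54 and -0.40 in WT E2. Uhrf1 in EAAE lay at -1.79, -1.73 and -1.77 under saline and -1.64, -1.66 and -1.65 after E2. The Uhrf1 probe lies at chr17:54481483-54481542, plus strand (build mm7). The 6 EAAE arrays lay close together and below all WT arrays (log2 difference -1.31, SE 0.14, adjusted p = 0.000103 under saline, and -1.13 after E2, adjusted p = 5.93e-05), and a second probe gave -1.30 and -1.54. In Okazaki fragment maturation, Fen1, the flap endonuclease, lay at -0.01, -0.04 and -0.29 in WT saline and -0.16, -0.14 and -0.06 in WT E2. Fen1 in EAAE lay at -0.46, -0.62 and -0.81 under saline and -0.37, -0.39 and -0.55 after E2. It was lower in EAAE under saline (log2 difference -0.52, SE 0.11, adjusted p = 0.00628) and after E2 (-0.32, adjusted p = 0.0315). Lig1, the ligase that seals the fragments, lay at 2.84, 2.73 and 2.85 in WT saline and 2.58, 2.51 and 2.60 in WT E2. Lig1 in EAAE lay at 2.33, 2.71 and 2.56 under saline and 2.55, 2.85 and 2.78 after E2. Neither genotype difference passed the threshold (-0.27 and 0.17). The saline calls that did not hold in every alternative were those of Rrm2 (8 of 25 alternatives, adjusted p up to 0.184, and 0.0561 to 0.112 without WT saline 1 or 2 or EAAE saline 1, 2 or 3), Tyms (adjusted p = 0.16 with mean of probes) and Fen1 (adjusted p = 0.101 with position as a linear term), and after E2 those of Rrm2 (adjusted p = 0.0688 with position as a linear term), Tyms (adjusted p = 0.192 with mean of probes) and Fen1 (7 of 26 alternatives, adjusted p up to 0.62, and 0.0534 to 0.101 without WT E2 1, 2 or 3 or EAAE E2 3).

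The response of WT to 2 h of E2 was small and went both ways. Of the 43 genes 8 rose (Orc2, Orc6, Mcm4, Pold2, Pole, Pcna, Rfc5 and Rpa1) and 9 fell (Orc5, the opposite-strand probe of Orc3, Gmnn, Mcm6, Mcm7, Gins4, Pold1, Rfc1 and Rpa2), against 19.6% higher and 29.7% lower of all genes tested (49.4% in either direction). The median of the members was -0.07, beside -0.15 for all genes. No called change of a member reached 2-fold, against 1656 lower and 1100 higher of all 19294 genes. Without probes on the opposite strand 8 rose and 8 fell. With arrays scaled to their median instead of their 75th percentile, all genes shifted from -0.15 to -0.01 and 9 members were higher and 2 lower, of which Orc5 and Rfc1 were the lower ones kept, while all genes split into 4512 higher and 3929 lower, in place of 3785 and 5738. The E2 arrays of WT all lay above the saline arrays in 10 members, against 24.9% of all genes, and all below in 15, against 39.6%. Of the 17 calls, 7 were kept under every alternative: Orc2, Orc5, Orc6, Mcm4, Pole, Pcna and Rfc1. With position as a linear term 6 rose and 5 fell, against 17.1% higher and 25.5% lower of all genes.

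In EAAE no replication gene passed the threshold after E2 in limma's test, 0 of 43 against 1.46% of all genes tested (0.689% higher and 0.767% lower). At an unadjusted p under 0.05 there were 7, or 16.3%, beside 16.0% of all genes. The median was 0.09, beside 0.02 for all genes, and the smallest adjusted p was that of Cdc6 (log2 difference -0.85, SE 0.20, adjusted p = 0.0708). None of the EAAE E2 arrays of Cdc6 was well above background, and on the deposited signal the bound on this difference was 1.6-fold. The second Cdc6 probe, well above background on 1 of 3 arrays in each EAAE group, gave 0.13 in this comparison (adjusted p = 0.881 over all tested probes). Normexp background correction gave -0.28 for the first probe, so the 1.6-fold bound did not hold with it. No direction is given for Cdc6 in this comparison. The arrays of EAAE E2 and EAAE saline did not overlap in 9 members, 6 with E2 higher and 3 lower, against 9.59% and 8.87% of all genes. Without EAAE E2 3, 1 member was lower and 0 higher. Whether the genotypes respond differently is tested by the difference between the 2 responses. A need for direct DNA binding by the receptor was not tested, as the genotypes already differed under saline.

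The responses differed between genotypes in 11 members, against 37.3% of all genes. The EAAE response was above that of WT in Orc5, Pold1, Mcm7, Rpa2, Lig1 and Mcm6 and below it in Cdc6, Pcna, Cdc45, Mcm4 and Pold2, which is 6 and 5 of 43 against 22.2% and 15.1% of all genes. Orc5 differed by 1.05 and Cdc6 by -1.05 (adjusted p = 0.0156), and the other 9 by 0.36 to 0.53 in size. Of the 11, Orc5, Mcm6 and Mcm7 were kept under every alternative, and no call on the lower side was. For Cdc6 the second probe, mostly not well above background in EAAE, gave -0.18, and normexp background correction of the first gave -0.44. The 2 responses share no array, and over the 43 members they correlated at -0.15, with 18 of the same sign. Over all genes the correlation was -0.04, with 9087 of 19294 of the same sign. The calls lost in some alternatives were those of Cdc6 (adjusted p = 0.174 with mean of probes), Mcm4 (adjusted p = 0.0537 with quantile scaling and 0.0783 with slide as a block), Cdc45 (13 of 25 alternatives, adjusted p up to 0.167, and 0.059 to 0.0881 without WT saline 2 or 3, WT E2 2 or 3, EAAE saline 1 or 3 or EAAE E2 1 or 3), Pold1 (adjusted p = 0.0619 with array median scaling), Pold2 (5 of 25 alternatives, adjusted p up to 0.0997, and 0.0533 to 0.0576 without WT saline 3 or WT E2 1 or 3), Pcna (adjusted p = 0.0664 with quantile scaling), Rpa2 (adjusted p = 0.0633 with array median scaling) and Lig1 (16 of 25 alternatives, adjusted p up to 0.18, and 0.0587 to 0.104 without WT saline 1, 2 or 3, WT E2 1, 2 or 3, EAAE saline 1 or 3 or EAAE E2 2 or 3).

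**Figure D4:**
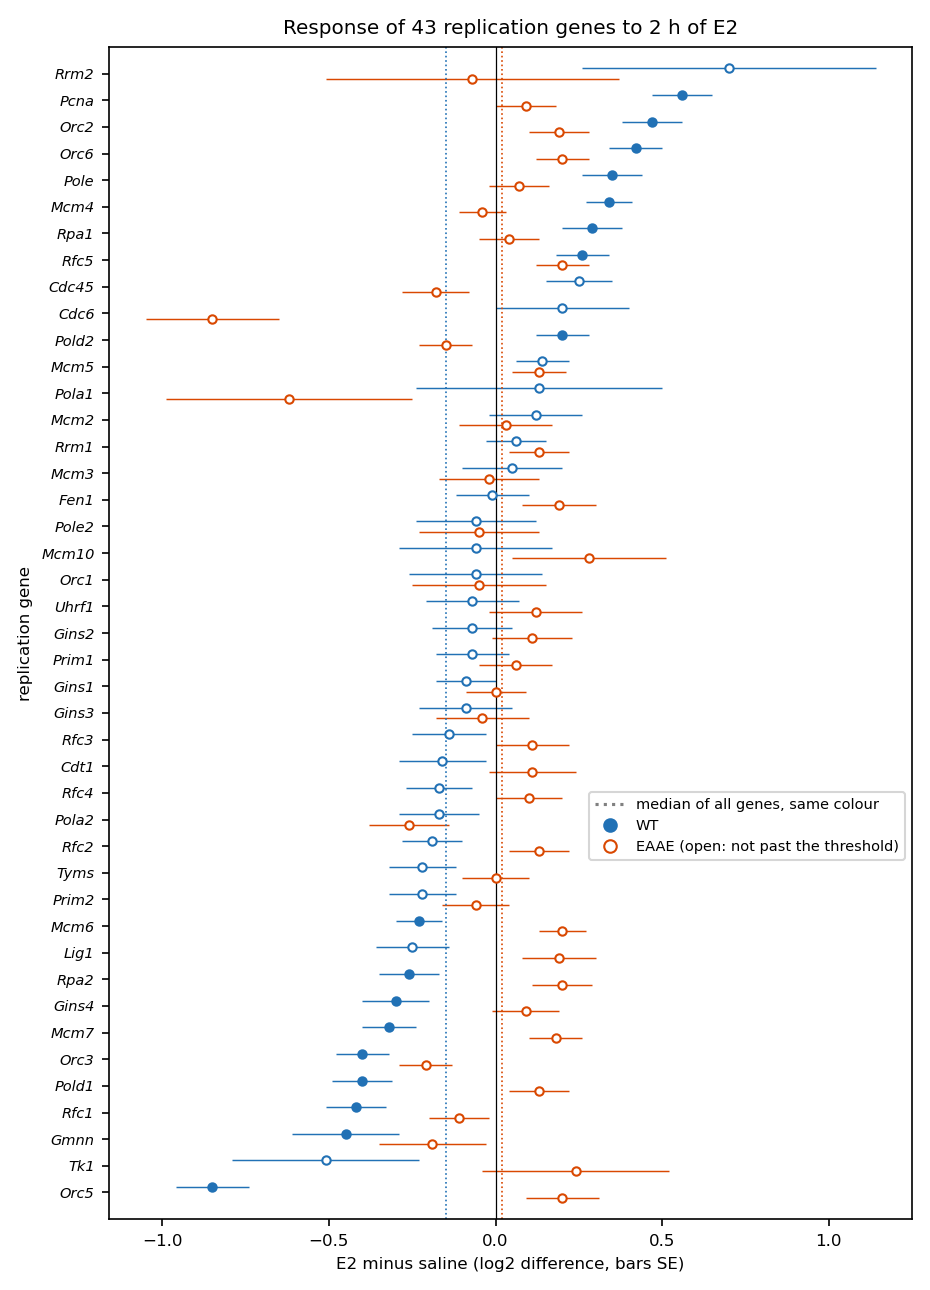
Response to 2 h of E2 (log2 difference from saline, x axis, bars 1 SE) of the 43 replication genes, in WT (blue) and EAAE (orange), filled where past the threshold, with dotted lines at the median of all genes. The WT values run from -0.85 in Orc5 to 0.70 in Rrm2, and all EAAE points are open.

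The wider cell cycle programme was set beside these genes through lists of other genes, chosen by name. Of all genes tested, 15.0% were lower and 14.6% higher in EAAE under saline, and 24.5% were lower after E2. Under saline, 19 of 20 mitosis genes were lower in EAAE and 0 higher, with a median of -2.25, among them Cdc20 (-2.05), an activator of the anaphase-promoting complex, and Kif20a (-2.63), a kinesin of cell division. After E2 18 of 20 were lower, with a median of -1.89. Of 35 other replication factors 14 were lower and 3 higher under saline, with a median of -0.29, including Chaf1b (-1.92) and Chaf1a (-0.92), subunits of chromatin assembly factor 1, and Dscc1 (-1.37), a part of an alternative clamp loader. Of 13 checkpoint and repair genes 5 were lower, among them Exo1 (-1.98), an exonuclease, and Brca1 (-2.03), a homologous recombination gene. Among 20 cyclins, kinases and inhibitors 9 were lower and 3 higher, with the S-phase cyclin Ccna2 (-2.70) and the mitotic kinase Cdk1 (-2.44) lower and the D-type cyclin Ccnd2 (1.89) higher. Of 18 E2F and Rb genes 5 were lower and 3 higher, including the atypical E2F genes E2f7 (-1.86) and E2f8 (-2.46). Of 16 other genes of deoxynucleotide supply 3 were lower and 2 higher, or 18.8% and 12.5%, close to the shares of all genes.

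The response of WT to E2 in these lists was again mixed, beside 19.6% higher and 29.7% lower of all genes tested. Of the E2F and Rb genes 7 rose and 5 fell, with Lin9 (1.17) and E2f6 (1.19) rising and the lowest value at -0.83. Of the cyclins, kinases and inhibitors 4 rose, with Cdkn1a, an inhibitor of cyclin-dependent kinases, at 2.98 and Myc at 1.30. In that list 6 fell, 2 of them at least 2-fold, and the lowest value was -1.23. Ctps, which makes CTP, rose by 2.12, in a list of 16 genes of which 4 rose and 4 fell. Of the mitosis genes 1 rose, Mad2l1 at 4.25, and 2 fell. Other replication factors rose in 6 and fell in 9 of 35, and checkpoint and repair genes rose in 1 and fell in 5 of 13. In EAAE 1 gene of all these lists passed the threshold after E2, Cdkn1c (-0.70), beside 1.46% of all genes tested.

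**Figure D5:**
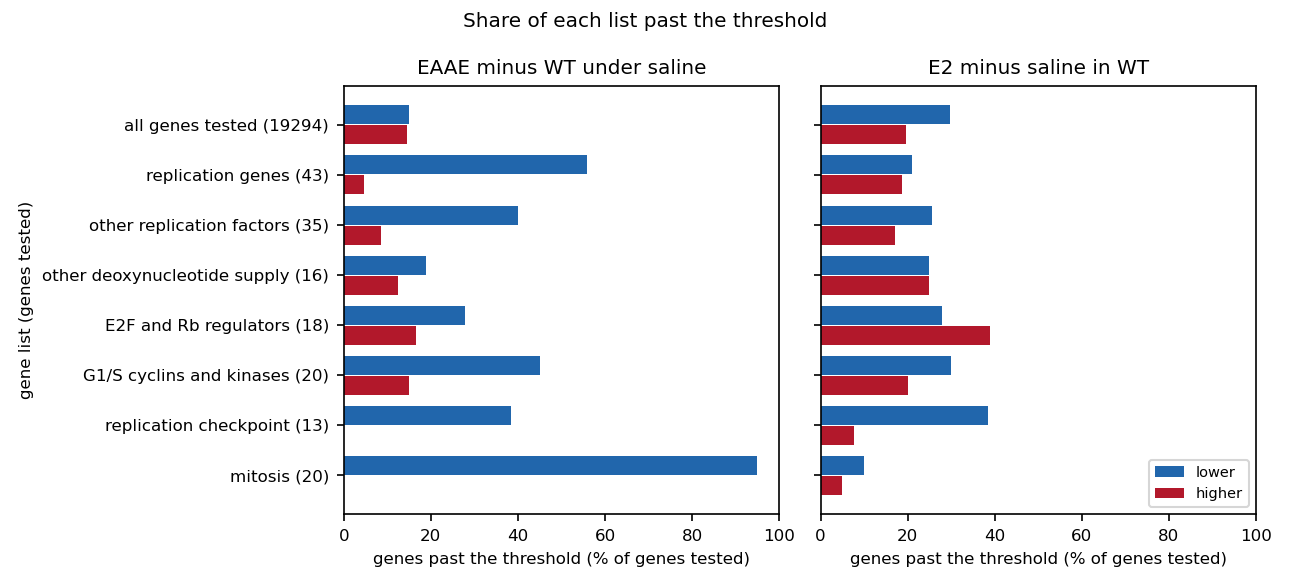
Share of each gene list past the threshold (% of its tested genes, x axis), lower in blue and higher in red, for EAAE minus WT under saline (left) and E2 minus saline in WT (right), with the number of tested genes after each name. Under saline 24 of 43 replication genes and 19 of 20 mitosis genes were lower, against 15.0% of all genes, and in the WT response 9 of 43 and 2 of 20 were, against 29.7%.

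Some lists of cell type markers differed between genotypes. Over all genes tested, 14.6% were higher and 15.0% lower in EAAE under saline, and 33.5% higher and 24.5% lower after E2. In the WT response 29.7% of all genes fell. Adipocyte markers passed no test between genotypes under saline (0 of 7). Stromal markers were then higher in 2 of 8 and lower in 1, smooth muscle markers higher in 1 of 7 and lower in 1, and endothelial markers lower in 2 of 7. Under saline 8 of 9 epithelial markers were higher in EAAE and 0 lower, and their summed level was 117 to 132 times the 75th percentile in WT saline and 185 to 230 in EAAE saline. Macrophage markers were lower in 6 of 12 and higher in 1, with summed levels of 116 to 179 in WT saline, 73.3 to 92.1 in WT E2, 38.3 to 55.0 in EAAE saline and 40.1 to 140 in EAAE E2, and lymphocyte markers were lower in 4 of 12 (2.67 to 3.15 in WT saline and 1.59 to 1.95 in EAAE saline). Adipocyte markers fell in WT with E2 in 7 of 7, with summed levels of 24.6 to 188 in WT saline and 2.29 to 24.5 in WT E2, stromal markers fell in 7 of 8 (418 to 450 in WT saline and 277 to 319 in WT E2), and endothelial markers in 5 of 7 (29.0 to 34.2 and 18.5 to 19.4). After E2 the genotypes differed in 7 of 7 adipocyte markers, all higher in EAAE with a median of 3.78, at summed levels of 50.1 to 275 in EAAE E2. Stromal markers were higher in 6 of 8 (368 to 441 in EAAE E2), and epithelial markers were higher in 6 of 9 and lower in 1 (112 to 123 in WT E2 and 184 to 216 in EAAE E2). Smooth muscle markers were lower in 4 of 7 and higher in 1 (405 to 492 in WT E2 and 250 to 414 in EAAE E2). Macrophage markers were higher in 2 of 12 after E2, lymphocyte markers in 1 of 12 and endothelial markers in 2 of 7, with 0 lower in each. None of the tested markers was at 0, and the part of these shifts in the replication genes was not tested.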

How the data were processed

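Per the file headers, the authors used Agilent Feature Extraction 9.5.3.1 (9.5 per the submitters' processing notes), and the deposited signal is an intensity on a linear scale, background-corrected within each array and unscaled between arrays. Per the labels' protocols, 500 ng of total RNA went into each Cy3 labelling. A deposited series-wide table repeats these intensities on all 45018 spots. Its columns have medians of 147.7 to 225.4, and they are linear and uncentred.

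Intensities were taken to log2 and reduced by the 75th percentile of each array after removal of control and outlier spots, and replicate spots were averaged. The filter kept 29008 of 41174 probes, those called well above background throughout 1 or more groups, and the brightest stood for each of 19294 genes. Of the members' 63 probes, 50 matched by the name in the files, 9 by accession and 4 by an older name. For the 35 members in the RefSeq promoter table, 2 of 50 probes, both of Orc3, lay on the strand opposite the gene. Other names came from a RefSeq table (GRCm38.p6), and probe coordinates are the files' (mm7). Where a whole group was not well above background, "at least N-fold" sets the brighter group's mean against, per array, the higher of the dim value and the lowest signal well above background. It is a bound for the deposited signal and not for other background corrections.

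The test was limma's (version 3.58.1, R 4.3.3; lmFit and eBayes with 4 group means, no covariate, 2-sided, Benjamini-Hochberg over all genes tested, threshold 0.05). Python 3.11.15, numpy 2.4.6, pandas 2.3.3 and matplotlib 3.10.9 were used. On simulated data for the WT response over 19294 genes, 89 of 100 changes of log2 size 1 and 95 of 100 of size 2 were recovered. The members and lists were chosen with earlier results of these data known. All members could be named, with values on every array for those past the threshold in a comparison, and other genes only if past it and among the 4 smallest p of their list. Alternatives covered background correction, scaling, filter, probe rule, slide, position, replicate number, the deposited table and leaving out each array. The normexp correction added an offset of 50 to each intensity before the log2 step.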

Additional observations from a re-analysis of the deposited data

Results flagged for a closer look

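The response to E2 differed between EAAE and WT in 11 replication genes by limma's test of the difference itself, against 37.3% of all genes tested. Orc5 differed by 1.05, with EAAE above WT: its WT E2 arrays lay at -2.65, -2.85 and -2.55 and its EAAE E2 arrays at -1.60, -1.66 and -1.73. The EAAE response was also above that of WT in Pold1 (0.53), Mcm7 (0.50), Rpa2 (0.46), Lig1 (0.44) and Mcm6 (0.43), where WT values fell or were negative (-0.40, -0.32, -0.26, -0.25 and -0.23) and EAAE values were positive without passing the threshold (0.13, 0.18, 0.20, 0.19 and 0.20). Cdc6 differed by -1.05, with 0.20 in WT and -0.85 in EAAE, neither past the threshold. The EAAE response was below that of WT in Pcna (-0.46), Cdc45 (-0.43), Mcm4 (-0.38) and Pold2 (-0.36), for which WT gave 0.56, 0.25, 0.34 and 0.20 and EAAE 0.09, -0.18, -0.04 and -0.15. The cause was not tested.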

How the results depend on the processing

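Of 26 alternatives, 12 leave out 1 array each. Over all member values 5105 kept their direction and side of the threshold, 157 that were called in neither setting changed sign, 221 calls were lost, 41 were gained and 3 called values turned: Orc3 under saline gave -0.10 without probes matched through an older name and -0.10 without probes on the strand opposite their gene, both chosen after seeing the data, and Pola2 after E2 gave 0.34 with the mean of probes. Members that passed no test changed sign under some alternative in 13 (WT response), 18 (EAAE response), 11 (difference of responses), 6 (saline) and 2 (after E2) cases. Array median scaling gave 2 lower members and a median of 0.06 in the WT response, a median of 0.14 in the EAAE response, 3 higher members and a median of 0.04 for the difference of responses, 1 higher member under saline, and 4 higher members and a median of -0.44 after E2. Quantile scaling gave a median of 0.07 in EAAE and 3 lower members for the difference. The mean of probes gave medians of 0.07 in EAAE, 0.07 for the difference and -0.31 after E2, where normexp background and probes well above background on all arrays gave -0.31 as well, and 1 higher member under saline. Position as a linear term gave 5 lower in the WT response, 3 lower for the difference, 0 higher and 14 lower under saline and 4 higher and 16 lower after E2. Of all genes, that setting had 25.5% lower in the WT response and 14.3% lower for the difference. It had 8.02% higher and 7.36% lower under saline, and 21.8% higher and 16.1% lower after E2. Slide as a block gave 2 lower for the difference and 0 higher with a median of -0.40 under saline. Higher members under saline numbered 1 with no filter on dim probes, with only the groups compared, without probes matched through an older name and without probes on the opposite strand. Replicate numbers did not pair the mice (same-number deviations correlated at -0.282 to 0.274, median 0.03), and the replicate block left 1 higher and 25 lower under saline, 7 higher and 8 lower in the WT response and 5 higher and 4 lower for the difference. Without single arrays the WT response had 5 to 9 higher (5 without WT saline 2 or 3), 5 to 10 lower (5 without WT saline 1, WT E2 1 or WT E2 2) and medians of -0.15 to 0.03. The EAAE response had 0 to 1 lower (1 without EAAE E2 3) and medians of 0.05 to 0.10, and the difference 3 to 5 lower (3 without WT saline 3 or WT E2 3) and medians of 0.07 to 0.17. Saline had 0 to 2 higher (0 without WT saline 1 or 3 or EAAE saline 3) and medians of -0.45 to -0.36, and after E2 there were 4 to 7 higher (4 without WT E2 2). The causes were not tested. The number of mice limits the precision, and Orc1, Cdc6 and Rrm2 were not well above background on all arrays.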
